A study of Mus musculus with 53 samples.

Results

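Vgf, the granins and the enzymes that process prohormones were followed in the mouse hypothalamus in 10 genes of the 53379 in the count tables. The members, Vgf, Chga, Chgb, Scg2, Scg3, Scg5, Pcsk1, Pcsk2, Cpe and Pcsk1n, were chosen by their function, and Vgf was also chosen by its measured level in the PVN of chow-fed mice. RNA was sequenced from the paraventricular nucleus (PVN) and the arcuate nucleus (ARC), cut by laser from cresyl violet-stained brain sections of C57BL/6 mice. The study asked whether loss of Nnat, an imprinted gene read from the allele of the father, changes gene expression in nuclei that govern feeding and body weight. Nnat+/-p mice carry a null allele from their father in every cell, and Nnat+/+ mice are their wild-type controls.

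On chow, the labelled body weight split the Nnat+/-p mice into a non-obese and an obese group. From chow-fed males there were PVN libraries of 3 Nnat+/+ mice, of 3 Nnat+/-p mice classed as non-obese (27.4 to 34.3 g) and of 4 classed as obese (38.8 to 46.5 g). From chow-fed females there were PVN libraries of 4 Nnat+/+ mice, of 3 non-obese (20.4 to 23.9 g) and of 3 obese Nnat+/-p mice (31.5 to 33.35 g). The male ARC on chow gave 2 Nnat+/+, 4 non-obese and 4 obese Nnat+/-p libraries. Males fed a 45% fat diet (HFD) gave 6 Nnat+/+ and 3 Nnat+/-p libraries of the PVN, and 6 Nnat+/+ and 4 Nnat+/-p libraries of the ARC. The labels call the mice adult, and the extraction protocol gives 13 to 14 weeks for the males. Each of the 49 libraries used is named by its condition and by its replicate number, which runs through the whole series. No label says that libraries of a group are from separate litters, so p-values measure only the spread between these libraries.

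Neuropeptides and many hormones are made as longer precursors, which are packed into dense-core granules and cut there into active peptides. Granins are acidic proteins that help these granules form and are themselves cut into peptides. Chga encodes chromogranin A, Chgb chromogranin B, Scg2 secretogranin II and Scg3 secretogranin III, which binds chromogranin A at the granule membrane. Vgf is a granin-like precursor that neurotrophins induce, and peptides cut from it act on energy balance. Pcsk1 and Pcsk2 encode the prohormone convertases that cut precursors at paired basic residues, and Cpe encodes carboxypeptidase E, which trims the basic residues left behind. Scg5 encodes the chaperone that the Pcsk2 product needs to mature, and Pcsk1n encodes proSAAS, an inhibitor of the Pcsk1 product. Neurons of the PVN and the ARC use this machinery for peptides such as vasopressin, oxytocin, corticotropin-releasing hormone and the products of proopiomelanocortin.

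Libraries held 2268021 to 8560199 counts in the male PVN, 6219365 to 30228973 in the female PVN and 1479953 to 18058097 in the male ARC. Levels are given as CPM, counts scaled to a common library total, with TMM factors that adjust the totals so that most genes do not differ. Every member had between 61 and 60203 counts in each library used. The targeted gene followed the labels, with Nnat at 269.99 to 573 CPM in 21 wild-type libraries and at 0.324 to 13.6 CPM in 28 Nnat+/-p libraries. The defining PVN genes were near 0 in replicate 15, a chow-fed Nnat+/+ male PVN library with Sim1 at 0.504, Avp at 0.168 and Oxt at 0.504 CPM, and with Pomc, an ARC gene, at 101 CPM. In replicate 24, an HFD-fed Nnat+/+ male PVN library, Sim1 was 15.5 CPM, Avp 0.870 and Oxt 1.22. In the other 17 male PVN libraries Sim1 was 33.5 to 179 CPM, Avp 68.9 to 441 and Pomc 0.290 to 11.8. Several values that include replicates 15 and 24 are therefore also given without them. In the 20 ARC libraries Pomc was 2.43 to 417 CPM. The 5 ARC markers found summed to 14.4 to 123 CPM in the chow-fed non-obese Nnat+/-p ARC and to 49.5 to 677 CPM in the other ARC groups. In the PVN of Nnat+/+ females they reached 36.0 CPM. No ARC library was left out for its markers, so the lowest one is in the comparisons below.

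All 10 members were expressed well above the low-count limit in both nuclei, with Scg2 and Cpe at the top and Pcsk2 and Pcsk1 at the bottom. Per kilobase of exon, Scg2 averaged 316 ± 59.8 CPM (SD, n = 19) in the male PVN and 265 ± 38.4 (SD, n = 20) in the male ARC. Cpe averaged 216 ± 40.0 and 222 ± 39.1 CPM per kilobase in the same libraries. Scg2 was the highest member in 16 of 19 male PVN, 15 of 20 ARC and 9 of 10 female PVN libraries. Pcsk1n, Chgb, Scg3 and Scg5 followed, between 135 and 63.4 CPM per kilobase in the male PVN. Vgf averaged 43.6 ± 15.0 CPM per kilobase there, and Chga 46.1 ± 23.7. Chga was above Vgf in only 11 of those 19 libraries, so the order of this pair was not fixed. In the ARC the order of the means differed in Chga, which at 85.8 ± 34.1 CPM per kilobase stood above Scg3 at 71.3 ± 11.8 and Scg5 at 69.6 ± 14.0. Chga was above Scg3 in 12 of those 20 libraries and Scg3 above Scg5 in 11, so this order was not fixed either. The convertase genes were lowest, with Pcsk2 at 19.0 ± 3.82 and Pcsk1 at 15.4 ± 6.03 CPM per kilobase in the male PVN, and at 15.9 ± 4.71 and 9.02 ± 2.34 in the ARC. Pcsk2 was above Pcsk1 in 14 of 19 male PVN and 17 of 20 ARC libraries, and in 4 of 10 female PVN libraries. The female libraries were sequenced as a pool of their own, so sex and pool cannot be told apart.

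**Figure D1:**
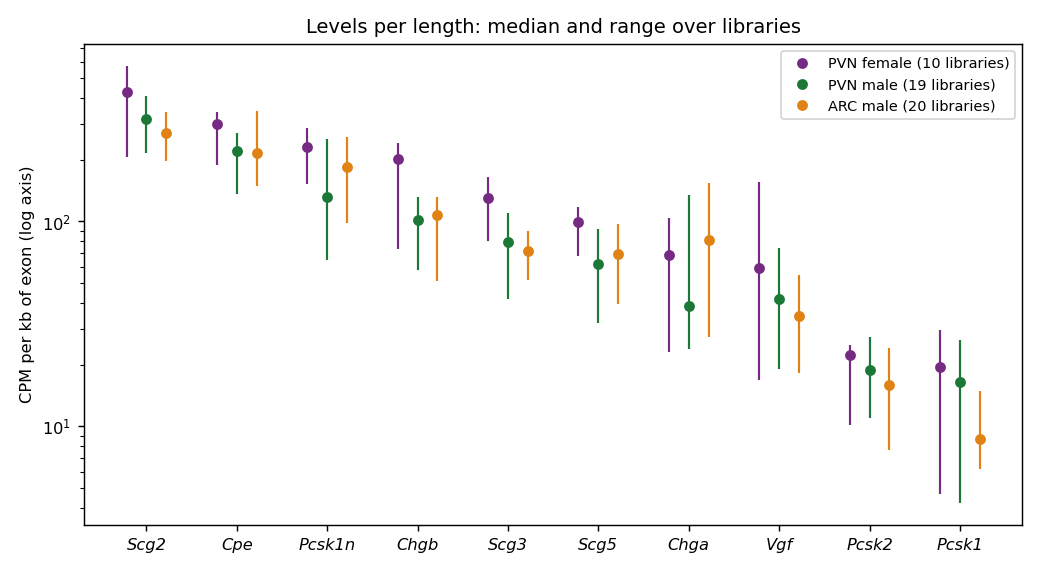
Level of each member in CPM per kilobase of exon (log axis) in the male PVN, female PVN and male ARC. Points are medians over the libraries of a set, and lines run from the lowest to the highest library. By median, Scg2 and Cpe lie highest and Pcsk1 lowest in each set. Chga sits higher in the ARC (median 80.9) than in the male PVN (median 38.7).

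Several of these genes are known targets of signalling through cyclic AMP, and their promoters were read for its response element, the palindrome TGACGTCA, which the factor CREB binds. The window was 250 bases before to 50 bases after the transcription start in RefSeq, on GRCm38.p6, and 8 of the 10 members had one (not Vgf and Cpe). The 8 letters, searched on both strands, stood in the windows of 3 members, Scg2, Chgb and Pcsk1, and in 1.79% of all 32851 windows. These are the 30 bases around each match, 5′ to 3′ on the strand of the gene, with the element in capitals.
Scg2: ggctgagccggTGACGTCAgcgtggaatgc
Chgb: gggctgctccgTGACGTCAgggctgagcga
Pcsk1: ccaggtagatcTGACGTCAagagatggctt
The Scg2 stretch is chr1:79440076-79440105 on the minus strand, with the element 68 bases before the RefSeq start. It lies inside the longer GENCODE gene model, in an exon of 1 of 2 transcripts. The Chgb stretch is chr2:132781559-132781588 on the plus strand, 72 bases before the RefSeq start and inside an exon of the only GENCODE transcript. The Pcsk1 stretch is chr13:75089768-75089797 on the plus strand, 78 bases before the RefSeq start and upstream of the GENCODE gene. The letters TATAAA stood in 13.6% of windows and in that of 1 member, Chga. A match of letters is a description of the sequence and was not tested as a site.

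Vgf (ENSMUSG00000037428, chr5:137026392-137033351, plus strand, GRCm38) was higher in the PVN of chow-fed Nnat+/-p males than in that of Nnat+/+ males. Because these values led to the choice of the gene, they are described here without a test. In the chow-fed male PVN, Vgf was 56.7, 100.1 and 82.3 CPM in the Nnat+/+ libraries. It was 125, 128 and 171 CPM in the non-obese Nnat+/-p libraries and 165, 205, 182 and 221 CPM in the obese ones. Every Nnat+/-p library lay above every Nnat+/+ library, while the obese and non-obese ranges overlapped. The log2 fold change was 1.28 (SE 0.25) for obese against Nnat+/+, 0.83 (SE 0.26) for non-obese against Nnat+/+ and 0.45 (SE 0.25) for obese against non-obese mice. These comparisons share their libraries. Groups did not overlap in the higher direction for 2.25% of the genes in the first of these comparisons and for 4.04% in the second. Without replicate 15 the Nnat+/+ values were 56.7 and 100.1 CPM, and the log2 fold changes were 1.30 and 0.85. Markers of forebrain excitatory neurons (5 genes) summed to 29.0, 95.4 and 250 CPM in these Nnat+/+ libraries, the last being replicate 15, and to 11.6 to 46.7 CPM in the Nnat+/-p libraries. Of the 4 tested, Nrgn was called lower in obese (−2.84, adjusted p = 0.143, edgeR) and in non-obese mice (−3.28, adjusted p = 0.193), and without replicate 15 it was −1.17 and −1.61 (adjusted p = 1 in both). The part of these cells in the Vgf values was not tested.

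Vgf also differed in how widely it varied among females. It was 121, 112, 133 and 114 CPM in the Nnat+/+ female PVN, a narrow range. In obese Nnat+/-p females it was 463, 301 and 436 CPM, above all Nnat+/+ libraries, as for 3.58% of genes. In non-obese Nnat+/-p females it was 350.2, 50.0 and 217 CPM, which spanned the Nnat+/+ range on both sides. Against Nnat+/+ females the log2 fold change was 1.69 (SE 0.40) for the obese and 0.72 (SE 0.40) for the non-obese group. The latter rests on single libraries, and was 0.14 without replicate 9 and 1.19 without replicate 10. In replicate 10, whose Vgf was 50.0 CPM, Pcsk1 was 26.2 CPM and Chga 63.8 CPM, the lowest of the female libraries for both genes, and the summed level of 10 neuron markers was 2238 CPM against 2697 to 4745 CPM in the other female libraries.

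The same Vgf values of the chow-fed PVN were then set in relation to neuronal genes, again as a description without a test. As a percentage of the summed CPM of the 10 neuron markers (Snap25, Syt1, Rbfox3, Stmn2, Tubb3, Eno2, Syp, Nefl, Elavl3 and Map2), Vgf averaged 2.28 ± 0.58 in the 3 chow-fed wild-type males, 4.83 ± 1.09 in the 3 non-obese and 6.56 ± 1.43 in the 4 obese Nnat+/-p males (SD). The Nnat+/+ males ran from 1.90, which is replicate 15, to 2.95, and the lowest Nnat+/-p male was at 3.83. The share of all genes that lie apart on this measure was not computed. The summed markers were 2847 to 4329, 2739 to 3256 and 2160.5 to 3568 CPM in these male groups. In females Vgf averaged 3.60 ± 1.06 percent in Nnat+/+, 5.17 ± 3.15 in non-obese and 8.75 ± 2.08 in obese Nnat+/-p mice (SD). The non-obese females ran from 2.24 to 8.50 and the Nnat+/+ females from 2.73 to 4.95, so these groups overlapped. In bulk tissue, fewer cells of a type and less RNA per cell cannot be told apart.

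**Figure D2:**
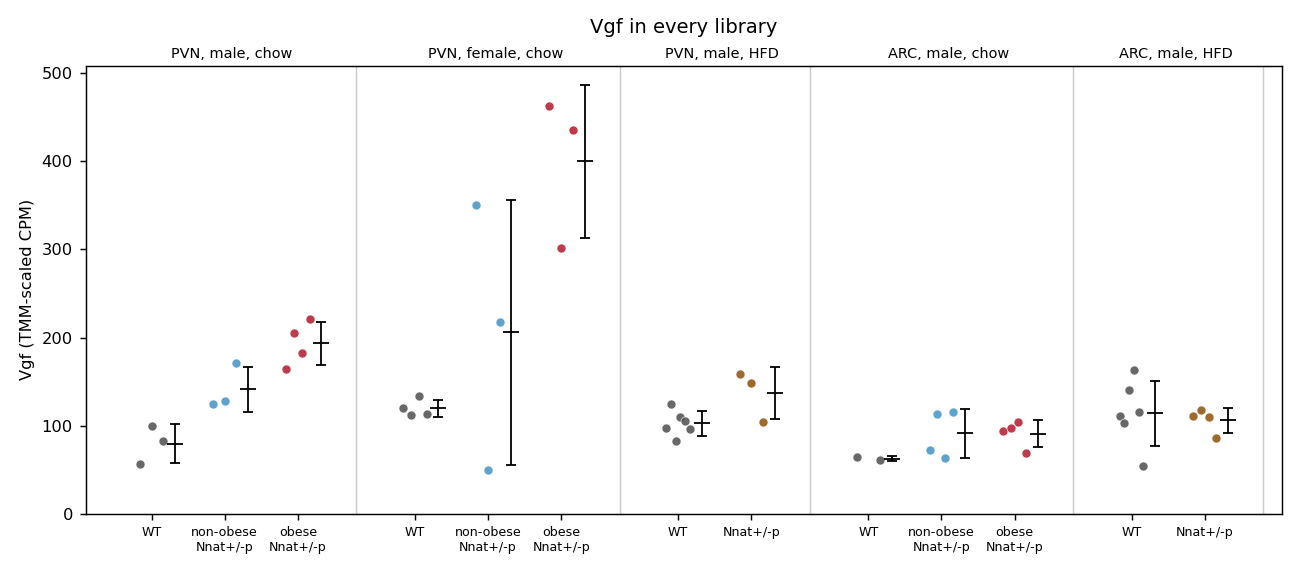
Vgf in CPM in each of the 49 libraries, by nucleus, sex, diet and group, with the mean ± SD of each group. The chow-fed PVN of Nnat+/-p mice holds the highest values, up to 463 CPM in a female, while the ARC libraries stay between 54.2 and 163 CPM.

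Outside the chow-fed PVN, no difference in Vgf between genotypes was called. In the PVN on HFD, Vgf was 82.1, 101 and 124 CPM (lowest, median and highest of 6) in Nnat+/+ mice and 159, 148 and 104 CPM in Nnat+/-p mice. The groups overlapped, and the log2 fold change of 0.40 (SE 0.19) was not called (adjusted p = 1; edgeR, quasi-likelihood, adjusted over all genes by Benjamini and Hochberg). In the ARC on chow, Vgf was 64.3 and 60.5 CPM in Nnat+/+, 72.5, 113, 62.9 and 116 CPM in non-obese and 93.9, 97.0, 103.7 and 68.8 CPM in obese Nnat+/-p libraries. The obese libraries all lay above the pair of Nnat+/+ libraries, with a log2 fold change of 0.52 (SE 0.26, adjusted p = 1). Genes whose obese libraries all lay above Nnat+/+ made up 6.56% of those tested there. In the ARC on HFD, Vgf was 54.2, 113.0 and 163 CPM (lowest, median and highest of 6) in Nnat+/+ and 111, 118, 110.3 and 85.5 CPM in Nnat+/-p mice, with a log2 fold change of −0.09 (SE 0.22, adjusted p = 1). Ordered by mean, the 13 groups ran from 400.1 ± 86.6 CPM (SD, n = 3) in obese Nnat+/-p females to 62.4 ± 2.67 (SD, n = 2) in the chow-fed Nnat+/+ ARC. In all 12 pairs of neighbours in this order the ranges of the libraries overlapped.

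The members other than Vgf were next compared between Nnat+/-p and Nnat+/+ mice, where the question is whether the granule machinery moves with genotype. A gene was called at an adjusted p under 0.25, the threshold the study used. None of the 9 members other than Vgf was called in the chow-fed male PVN, where 0.0256% of all genes were called for the obese and 0.0128% for the non-obese group against Nnat+/+. None was called in the female PVN either (0.0129% and 0.00646% of all genes), and none of the 10 in the ARC on chow (0.0205% and 0.0136%), the PVN on HFD (0.00569%) or the ARC on HFD (0.0127%). Across these 8 comparisons 0 of 76 member tests were called with edgeR, 6 had an unadjusted p under 0.05, and DESeq2 and limma voom also called 0. At an unadjusted p under 0.05, the share of all genes in these comparisons together was 2.89%. Obese and non-obese Nnat+/-p mice were compared in 28 further member tests, of which 0 were called and 0 had an unadjusted p under 0.05, with 0 called by DESeq2 and by voom (2.97% of all genes had an unadjusted p under 0.05). Of all genes, 0% were called in that comparison in the male and female PVN and 0.00682% in the ARC.

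Chga, the chromogranin A gene, had the lowest fold change of these 9 members in the chow-fed male PVN. It was 71.0, 107 and 373 CPM in the Nnat+/+ libraries, 106, 104 and 115 CPM in non-obese and 156, 128, 65.8 and 100.3 CPM in obese Nnat+/-p libraries. The value of 373 CPM belongs to replicate 15, and without it the Nnat+/+ values lay within the range of the obese libraries. Pcsk1 stood at the other end, at 72.5, 77.3 and 23.7 CPM in Nnat+/+, 93.3, 54.2 and 111 CPM in non-obese and 91.96, 44.2, 75.4 and 112 CPM in obese libraries. The 23.7 CPM is again replicate 15, and the groups overlapped with and without it. The log2 fold changes of the 9 members ran from −0.71 (Chga) to 0.48 (Pcsk1) in obese and from −0.74 (Chga) to 0.57 (Pcsk1) in non-obese males. Without replicate 15 the direction of Chga turned, to 0.34 in obese and 0.30 in non-obese males, and Pcsk1 was 0.11 and 0.20 (adjusted p = 1 in all 4, edgeR). In the female PVN they ran from −0.16 (Pcsk1n) to 0.61 (Scg2) in obese mice.

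In CPM, Scg2 differed in range between obese Nnat+/-p and Nnat+/+ females. It was 1088, 518, 820 and 1019 CPM in the Nnat+/+ female PVN and 1376, 1214 and 1445 CPM in that of obese Nnat+/-p females. The groups did not overlap, as for 3.58% of genes in this direction, and the log2 fold change of 0.61 (SE 0.27) was not called (adjusted p = 1, edgeR). The 10 neuron markers summed to 4372 to 4745 CPM in these obese and 2697 to 4416 CPM in these Nnat+/+ females. As a percentage of that sum, Scg2 was 25.6 to 33.1 in obese and 18.1 to 30.4 in Nnat+/+ females, so the groups overlapped. Secretogranin II is, like the Vgf product, a precursor of secreted peptides.

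In the ARC on HFD, Chga was 75.4, 172 and 295 CPM (lowest, median and highest of 6) in Nnat+/+ and 169.8, 205, 329 and 427 CPM in Nnat+/-p mice. The groups overlapped, and the log2 fold change of 0.72 (SE 0.28) was not called (unadjusted p = 0.0151, adjusted p = 0.999, edgeR). With no filter other than a total count above 1, the same comparison was called (log2 fold change 0.72, adjusted p = 0.00546), and no other setting called it. All 10 neuron markers had a positive fold change in this comparison, with a median log2 fold change of 0.17 and 0 called (3 at an unadjusted p under 0.05), and their part in the Chga value was not tested.

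**Figure D3:**
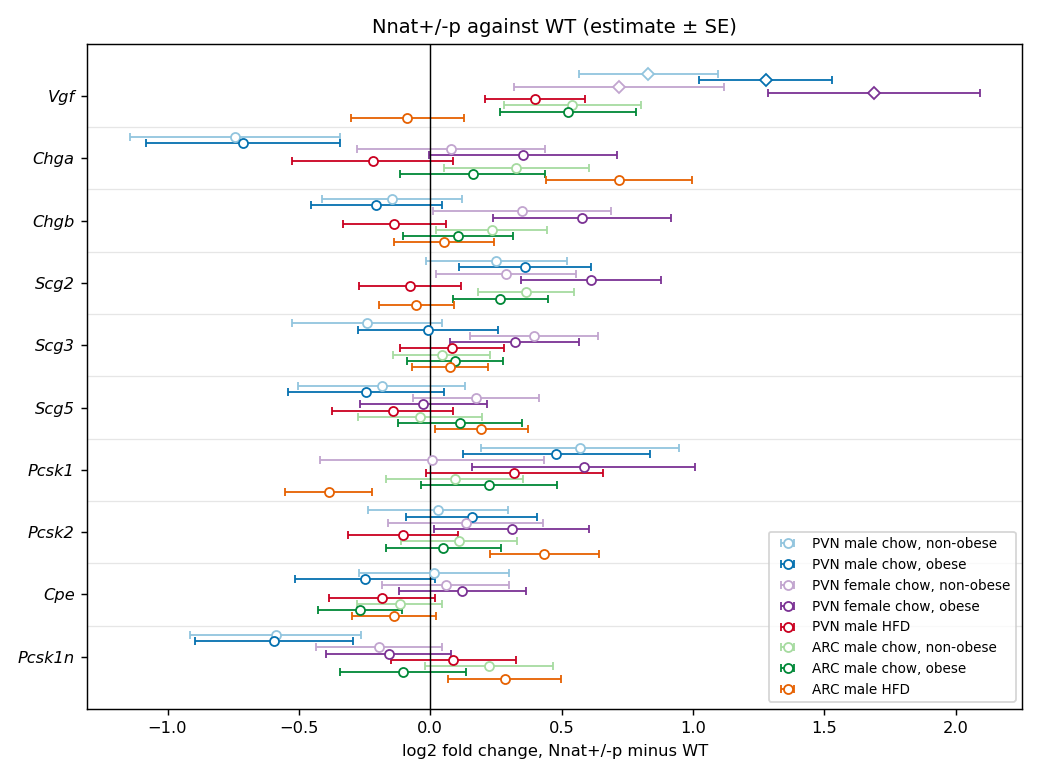
Log2 fold change of each member in Nnat+/-p against Nnat+/+ mice in the 8 genotype comparisons, with bars of ± 1 SE. Open circles were tested and not called at an adjusted p under 0.25, diamonds mark Vgf in the chow-fed PVN, where it is only described, and no point is filled because no member was called.

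Diet was compared within Nnat+/+ males. In the PVN on HFD against chow, 0 of 9 members were called (edgeR), against 1.43% of all genes. At an unadjusted p under 0.05 there were also 0 of 9, against 10.3% of all genes. These counts and shares include replicate 15 in the chow group. Without it, Scg5 had a log2 fold change of 0.56 (unadjusted p = 0.0308, adjusted p = 0.331, edgeR). DESeq2 and voom called 0 of the 9 in that comparison. The lowest log2 fold change there was −0.59 for Chga, with replicate 15 in the chow group. Without that library it was 0.48 (adjusted p = 0.422, edgeR). In the ARC, 1 of 10 was called, against 1.16% of all genes. This member was Pcsk1, which encodes the first convertase to act on proopiomelanocortin. Pcsk1 was 35.3 and 40.7 CPM in the ARC on chow and 71.8, 57.6, 82.9, 50.7, 61.4 and 71.0 CPM on HFD. All 6 HFD libraries lay above both chow libraries, as for 7.52% of genes. The log2 fold change was 0.76 (SE 0.22, adjusted p = 0.225, edgeR). The call rests on few mice: it was kept when replicate 45, 47 or 48 was left out, and lost without replicate 33 (adjusted p = 0.99), 34 (0.769), 44 (0.313), 46 (0.396) or 49 (0.251). With the shallow replicate 35 added to the chow group the log2 fold change was 0.35 (adjusted p = 0.635).

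Pcsk2 had a negative fold change in the same comparison and was not called. It was 145 and 137 CPM on chow and 60.5, 89.8 and 127 CPM (lowest, median and highest of 6) on HFD. The groups did not overlap, as for 6.32% of genes in this direction, and the log2 fold change was −0.65 (SE 0.26, adjusted p = 0.424, edgeR). For Vgf in the ARC, the HFD value against chow was a log2 fold change of 0.84 (SE 0.29, adjusted p = 0.317), with replicate 49 at 54.2 CPM below both chow libraries and the other HFD libraries at 102 to 163 CPM. This p passed the threshold without replicate 49 (adjusted p = 0.168) and under 6 of 8 other settings.

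Genes that these proteins act on or with were also compared between diets, where 1.16% of all genes were called in the ARC and 1.43% in the PVN. Of 20 other genes of granule formation, processing and release, 1 rose in the ARC on HFD, Ctsl (log2 fold change 0.75, adjusted p = 0.24), a protease that also cuts prohormones, and 1 rose in the PVN, Nucb2 (0.93, adjusted p = 0.173), the precursor of nesfatin. Of 18 peptide precursor genes, Cartpt (1.91, adjusted p = 0.0143) and Sst (1.28, adjusted p = 0.19) rose in the ARC. Pomc (−4.18, adjusted p = 0.0109) and Adcyap1 (−2.01, adjusted p = 0.0874) were called lower in the PVN, where the chow group includes replicate 15. Without that library they were −0.28 (adjusted p = 0.928) and 0.65 (adjusted p = 0.541), and Nucb2 was 0.88 (adjusted p = 0.199). Of the 20 granule genes, 2 were then called in the PVN, Nucb2 among them. In the genotype comparisons edgeR called 0 genes of either list, with an unadjusted p under 0.05 in 3 of 160 tests of granule genes and 19 of 127 tests of precursor genes, beside the 2.89% of all genes given above. Of these 19, 6 were in the obese and 3 in the non-obese comparison of the chow-fed male PVN, where 2 and 1 had such a p without replicate 15. Medians lay between −0.16 and 0.13 for granule genes and between −0.62 and 0.35 for precursor genes, beside −0.09 to 0.03 for all genes. The precursor medians of −0.62 in obese and −0.51 in non-obese chow-fed males were 0.04 and −0.12 without replicate 15.

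Among the members other than Vgf, the widest differences were between the nuclei. The PVN and the ARC were sequenced as separate pools, so the nucleus and the pool cannot be told apart. Most labelled weights recur in both nuclei, as in obese mice on chow (38.8, 46.5, 41.66 and 41.17 g in each). The nuclei may thus be from the same mice, while the main fit treats their libraries as independent. With both nuclei fitted together, 9 of 38 member tests were called, all for Chga, Pcsk1, Pcsk2, Pcsk1n or Scg5. In Nnat+/+ mice on HFD, 1 of 10 members was called, against 6.95% of all genes. In Nnat+/-p mice, 2 of 10 were called on HFD (3.24% of all genes), 3 of 9 in obese mice on chow (20% of all genes) and 3 of 9 in non-obese mice on chow (12.2%). With libraries of 1 labelled weight as a block, 5 of 10 were called in Nnat+/+ mice on HFD (Chga, Scg2, Pcsk1, Pcsk2 and Pcsk1n) and 5 of 9 in obese mice (Chga, Scg2, Scg5, Pcsk1 and Pcsk1n), with 3 in each of the other groups.

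Chga (ENSMUSG00000021194, chr12:102554969-102565028, plus strand) was lower in the PVN than in the ARC of Nnat+/-p mice, in each of the 3 conditions. On HFD it was 114, 105 and 111 CPM in the PVN and 169.8, 205, 329 and 427 CPM in the ARC, with no overlap (nor for 4.39% of all genes in this direction). The log2 difference was −1.38 (SE 0.36, adjusted p = 0.0324, edgeR). In obese mice on chow it was 156, 128, 65.8 and 100.3 CPM in the PVN and 265, 331, 166 and 239.6 CPM in the ARC, again with no overlap (4.62% of genes), and the log2 difference was −1.14 (SE 0.33, adjusted p = 0.0349). In non-obese mice on chow it was 106, 104 and 115 CPM in the PVN against 427, 226, 302 and 156 CPM in the ARC, apart as for 4.39% of genes. That difference was −1.34 on the log2 scale (SE 0.36, adjusted p = 0.0365). In Nnat+/+ mice on HFD, Chga was 91.0, 114 and 172 CPM in the PVN (lowest, median and highest of 6) and 75.4, 172 and 295 CPM in the ARC. Those groups overlapped, and the log2 difference of −0.47 (SE 0.26) was not called (adjusted p = 0.493). The change of the nucleus difference with genotype on HFD was tested by itself and gave −0.91 for Chga (unadjusted p = 0.0426, adjusted p = 1, edgeR), in a comparison that called 0% of all genes.

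Pcsk1 (ENSMUSG00000021587, chr13:75089826-75134861, plus strand) went the opposite way from Chga, higher in the PVN. In Nnat+/-p mice on HFD it was 117, 132 and 92.4 CPM in the PVN and 45.5, 53.5, 52.7 and 46.5 CPM in the ARC, a log2 difference of 1.18 (SE 0.31, adjusted p = 0.0308, edgeR). In non-obese mice on chow it was 93.3, 54.2 and 111 CPM in the PVN and 38.5, 37.9, 34.7 and 50.8 CPM in the ARC, a log2 difference of 1.10 (SE 0.31, adjusted p = 0.0492). In neither condition did the nuclei overlap (7.43% and 5.06% of genes in this direction). In obese mice on chow the PVN values were 91.96, 44.2, 75.4 and 112 CPM and the ARC values 36.2, 45.7, 46.8 and 50.3 CPM. There the ranges overlapped through replicate 17 at 44.2 CPM, and the log2 difference was 0.86 (SE 0.29, adjusted p = 0.0855).

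In Nnat+/+ mice on HFD, the call of Pcsk1 between nuclei depended on single libraries. Pcsk1 was 62.0, 28.0, 102, 149, 84.6 and 115 CPM in the PVN, where the 28.0 CPM is replicate 24, and 50.7, 66.2 and 82.9 CPM (lowest, median and highest of 6) in the ARC. The log2 difference was 0.45 (SE 0.23, adjusted p = 0.423, edgeR). It was 0.64 without replicate 24 (adjusted p = 0.0985) and 0.25 without replicate 26 (adjusted p = 0.816). Without replicates 15 and 24 it was 0.64 (adjusted p = 0.04), and 4 members were then called in Nnat+/+ mice on HFD, namely Chga (−0.58, adjusted p = 0.216), Scg2, Pcsk1 and Pcsk2.

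Pcsk2 (ENSMUSG00000027419, chr2:143546156-143816285, plus strand) was the member called in Nnat+/+ mice on HFD. It was 86.4, 154 and 193 CPM in the PVN (lowest, median and highest of 6) and 60.5, 89.8 and 127 CPM in the ARC. The ranges overlapped through replicate 24, the lowest PVN library. The log2 difference was 0.72 (SE 0.19, adjusted p = 0.0146, edgeR), and it stayed called with each library left out in turn (12 of 12) and under 11 of 11 other settings.

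The partner genes of the convertases were lower in the PVN where they were called. Scg5, the Pcsk2 chaperone gene, was 86.7, 127, 49.9 and 72.5 CPM in the PVN and 129, 153, 113 and 103.5 CPM in the ARC of obese mice on chow, with a log2 difference of −0.56 (SE 0.22, adjusted p = 0.151, edgeR). The call was lost without replicate 20 (−0.38, adjusted p = 0.393) and without replicate 37 (−0.45, adjusted p = 0.313). Pcsk1n, the proSAAS gene, was 318, 215 and 207 CPM in the PVN and 455, 481, 467 and 319 CPM in the ARC of non-obese mice on chow. The groups did not overlap, as for 4.39% of genes in this direction, but the gap was between 317.8 and 319.1 CPM, and the latter is replicate 43, which stood apart from the other ARC libraries of its group. The log2 difference was −0.80 (SE 0.27, adjusted p = 0.13). This call was lost without replicate 19 (adjusted p = 0.315), 22 (0.273) or 40 (0.269), with voom (0.343) and with all labelled libraries (0.263).

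**Figure D4:**
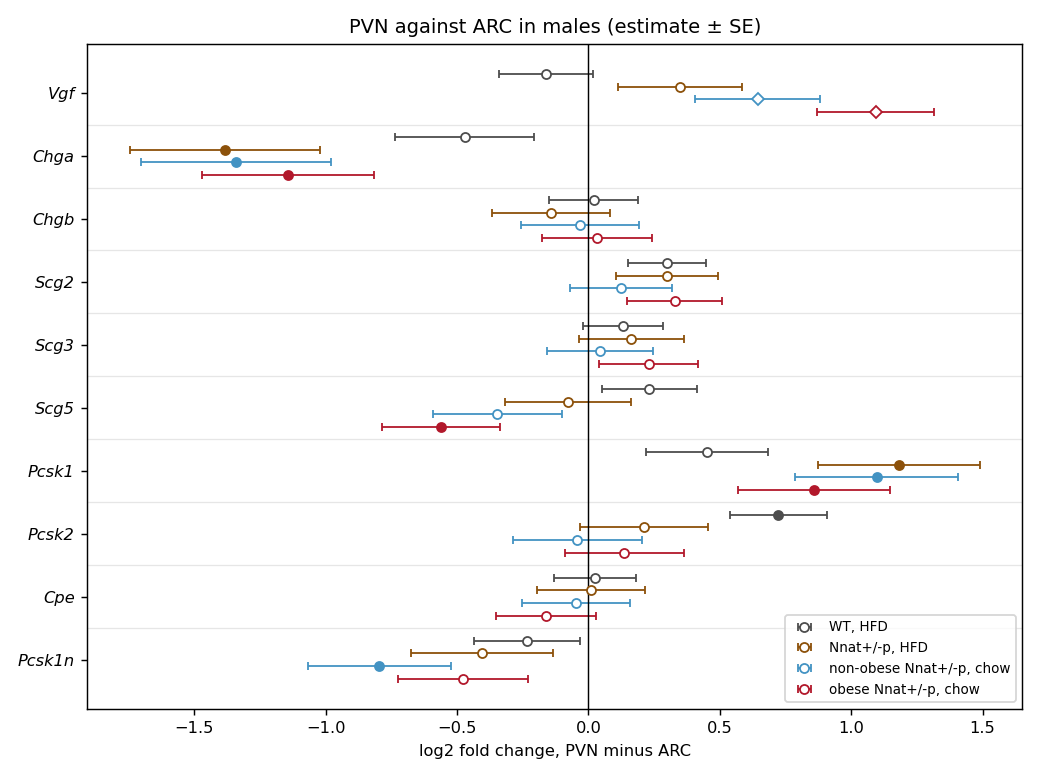
Log2 difference of each member between PVN and ARC (positive is higher in the PVN) in 4 groups of males, with bars of ± 1 SE. Filled circles passed an adjusted p under 0.25, open circles did not, and diamonds mark Vgf where it is only described; of the members tested, Chga lies lowest (−1.14 to −1.38) and Pcsk1 highest (0.86 to 1.18) in the 3 Nnat+/-p groups, with Vgf, only described, at 1.09 in obese mice.

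Vgf did not pass the test between nuclei where it was tested. In Nnat+/+ mice on HFD its log2 difference was −0.16 (SE 0.18, adjusted p = 0.824, edgeR) and in Nnat+/-p mice on HFD it was 0.35 (SE 0.24, adjusted p = 0.665). On chow, where the PVN values led to the choice of Vgf, it was 1.09 (SE 0.22) for obese and 0.64 (SE 0.24) for non-obese mice of this genotype, as a description. Chgb, Scg2, Scg3 and Cpe were called in none of the 4 comparisons of nuclei by edgeR in the main fit. The 1 of these 16 tests with an unadjusted p under 0.05 was Scg2 in Nnat+/+ mice on HFD, where 12.6% of all genes had one. Voom called Scg2 in that comparison and on HFD in Nnat+/-p mice, and DESeq2 called 10 of the 38 member tests in all, against 9 with edgeR and 13 with voom.

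Markers of several cell types differed between the nuclei beside these values. Of all genes, 6.95% were called in Nnat+/+ and 3.24% in Nnat+/-p mice on HFD. On chow, 20% were called in obese and 12.2% in non-obese mice. The 10 neuron markers summed to 3395 to 4702 CPM in the chow-fed ARC of Nnat+/-p mice and to 2160.5 to 3568 CPM in the chow-fed PVN, and 4 of 10 were called lower in the PVN of obese mice and 4 of 10 in that of non-obese mice. On HFD, 1 of 10 was called lower in Nnat+/-p mice (Rbfox3, −0.86, adjusted p = 0.217) and 3 of 10 were called higher in Nnat+/+ mice. Taken as a percentage of the neuron sum, Chga was 3.17 ± 0.17 in the PVN (SD, n = 3) and 7.37 ± 2.34 in the ARC (SD, n = 4) of Nnat+/-p mice on HFD, 3.67 ± 0.88 and 5.96 ± 0.93 in obese mice and 3.71 ± 0.40 and 6.55 ± 1.88 in non-obese mice. Markers of forebrain excitatory neurons (5 genes) summed to 32.7 to 202 CPM in the chow-fed ARC of Nnat+/-p mice and to 11.6 to 46.7 CPM in their PVN, with no gene of the list at 0 in every library, and their part in the Chga difference was not tested. Genes of that list went both ways, with Nrgn called lower in the PVN of obese (−3.19, adjusted p = 0.000295) and non-obese mice (−3.54, adjusted p = 0.00169), Tbr1 called higher in both (2.80 and 2.05) and Slc17a7 called higher in non-obese mice (3.75). Endothelial markers were called higher in the PVN for 3 or 4 of 5 genes in each of the 4 comparisons. All 5 PVN markers were called higher in the PVN in every comparison, and 5 of the 5 ARC markers tested were called lower, or 4 of 5 in non-obese mice.

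Across all genes on chow, the median log2 difference between nuclei was 0.13 for the obese and 0.12 for the non-obese mice. Relative to it, the difference of Chga was −1.27 and −1.46, and that of Pcsk1 0.73 and 0.98. With the size factors of DESeq2 the medians were 0.22 and 0.19, and no member named here changed direction.

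**Figure D5:**
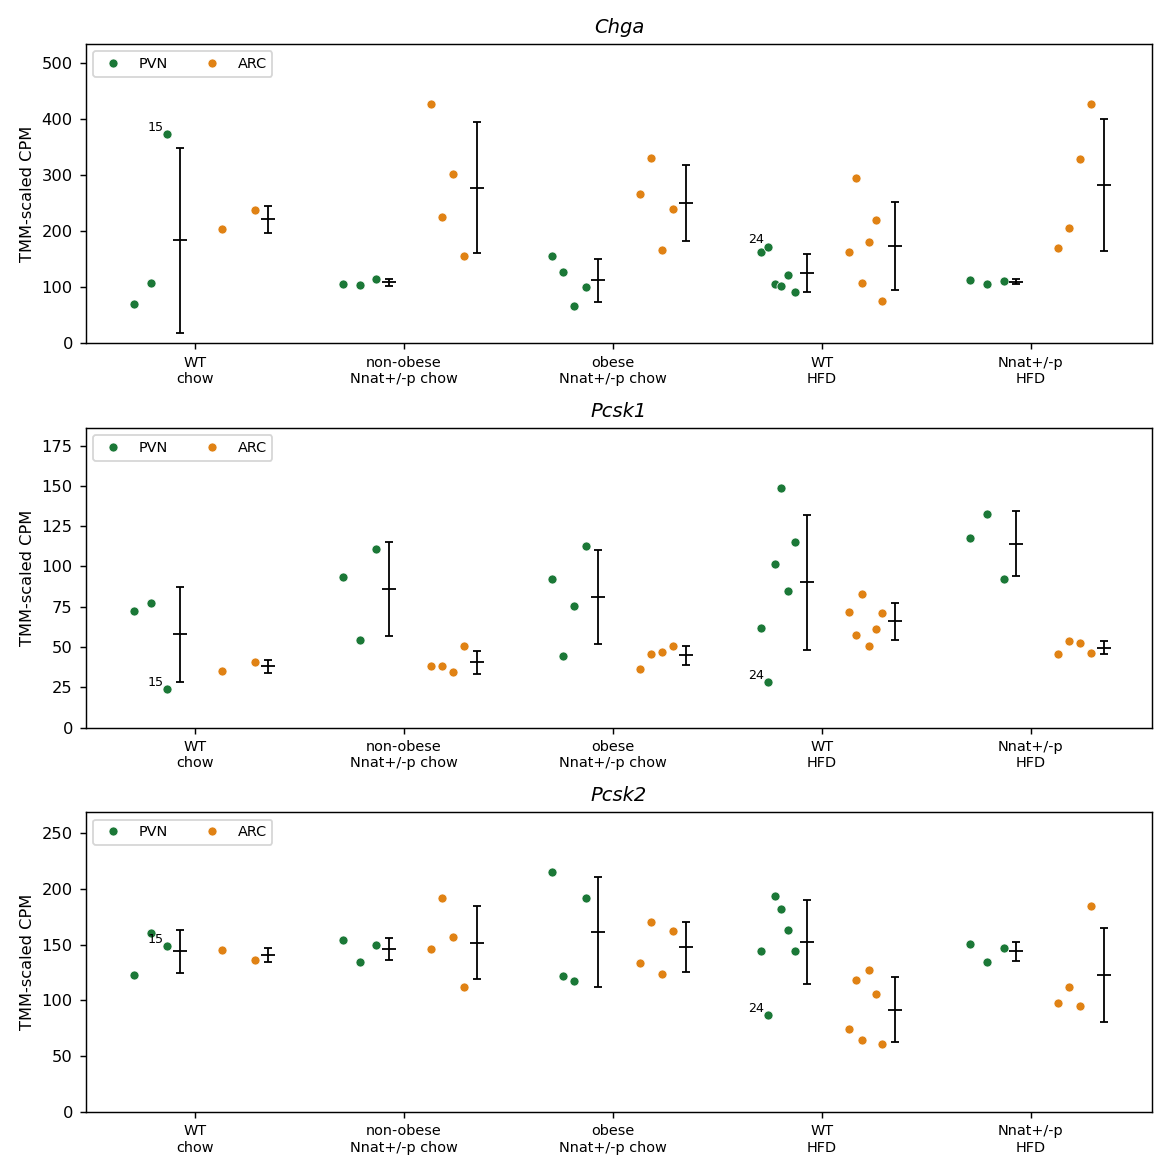
CPM of Chga, Pcsk1 and Pcsk2 in each male library by group, PVN and ARC side by side, with the mean ± SD and with replicates 15 and 24 numbered. The PVN points of Nnat+/-p mice lie below the ARC points for Chga and mostly above them for Pcsk1, while replicate 15 has the highest Chga (373 CPM) and the lowest Pcsk1 (23.7 CPM) of the male PVN.

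Other genes of the granule pathway were called between nuclei in both directions, and their counts are given beside the share of all genes. Of the 20 granule genes, 6 were higher and 1 lower in the PVN of Nnat+/+ mice on HFD, where 6.95% of all genes were called. Their median was 0.21, against 0.04 for all genes. The lower one was Cadps2 (−1.45, adjusted p = 0.00135, edgeR), which primes granules for release. Hid1 (0.83, adjusted p = 0.00406), needed for granule biogenesis, and Ptprn2 (0.48, adjusted p = 0.0411), a granule membrane protein, were higher. In Nnat+/-p mice on HFD, 1 was higher (Hid1, 0.71, adjusted p = 0.205) and 1 lower (Cadps2, −1.55, adjusted p = 0.036), against 3.24% of all genes. In obese mice on chow 3 were higher and 1 lower, among them Ptprn (0.47, adjusted p = 0.149), Nucb2 (0.63, adjusted p = 0.169) and the amidating enzyme gene Pam (−0.41, adjusted p = 0.188). That comparison called 20% of all genes. In non-obese mice on chow Hid1 was higher (0.61, adjusted p = 0.208) and the carboxypeptidase gene Cpd lower (−0.75, adjusted p = 0.0725), against 12.2% of all genes. On chow, the counts of granule genes lay near these shares of all genes. Of the 17 precursor genes tested, 5 were higher in the PVN in each comparison, Crh and Oxt among them, and 7 to 9 were lower, including Pomc. The same shares of all genes stand beside these counts.

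The balance of convertases and their partners was then read within each library as a log2 ratio of counts, with 2 added to each count. The ratios were Pcsk2 over Pcsk1, Scg5 over Pcsk2 and Pcsk1n over Pcsk1. Nuclei were compared in Nnat+/+ mice on HFD, and diets in the PVN of Nnat+/+ males. Genotypes were compared on HFD in each nucleus and on chow in the male PVN, with both weight classes together. In 15 exact permutation tests, 2-sided and adjusted together, 0 passed the threshold, and 1 had an unadjusted p under 0.05. That was Scg5 over Pcsk2 in Nnat+/+ mice on HFD, at −0.38 ± 0.30 in the PVN (SD, n = 6) and 0.11 ± 0.31 in the ARC (SD, n = 6), with a difference of −0.49 (exact permutation p = 0.026, adjusted p = 0.39). In the ARC on HFD, Pcsk2 over Pcsk1 was 1.24 ± 0.51 in Nnat+/-p (SD, n = 4) and 0.43 ± 0.70 in Nnat+/+ mice (SD, n = 6), a difference of 0.81 (exact permutation p = 0.105). The Pcsk1n over Pcsk1 ratio differed by 0.70 in the same mice (exact permutation p = 0.0762).

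Interactions of genotype, diet and nucleus called 0 of 38 member tests with edgeR, of which 3 had an unadjusted p under 0.05 (4.06% of all genes), and 0 with DESeq2 and voom. Among these 3 was Pcsk1n for genotype by diet in the PVN (0.68, unadjusted p = 0.047, edgeR). Without replicate 15 it was 0.29 (unadjusted p = 0.38). Chga in the same interaction was 1.43 times higher with that library and −0.53 on the log2 scale without it. Of all genes, 0% were called for genotype by diet in the PVN, 0.0127% for genotype by diet in the ARC and 0.0187% for diet by nucleus in Nnat+/+ mice.

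Within groups, the members varied less between libraries than most genes did. The within-group SD of log2 CPM was 0.27 for Scg3, 0.28 for Cpe and 0.29 for Scg2, the steadiest members, and 0.47 for Vgf, 0.59 for Pcsk1 and 0.60 for Chga, the most variable. The median over all genes kept was 0.73. Those genes include ones with fewer counts than the members, and SDs were not compared at matched counts. Chga followed the mean of the neuron markers most closely after group means were removed (Pearson r = 0.83, n = 49 libraries), then Cpe (0.74) and Chgb (0.70). For Vgf r was 0.43 and for Pcsk1 0.10. These points share library depth and tissue makeup, and are given as a description.

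Some members varied together across libraries. The highest correlations of log2 CPM about the group means were Chgb with Scg3 (0.64), Chga with Scg5 (0.63), Scg5 with Pcsk1n (0.63) and Scg2 with Pcsk1 (0.61), over 49 libraries. Chga and Pcsk1, with r = −0.14 over all libraries, were inversely correlated in the male PVN (−0.65, n = 19, with −0.47 without replicate 15 and −0.28 without replicates 15 and 24) and the male ARC (−0.50, n = 20) and positively in the female PVN (0.76, n = 10). Of 14057 other genes, those most like Vgf in the same measure were Tnfaip1 (0.79), Tln1 (0.77), Tmem185a (0.77), Fam149a (0.76) and Bicd2 (0.75). The likeness came mainly from the female PVN, where r was 0.91 to 0.97 for these 5 genes, against −0.09 to 0.28 in the male PVN and 0.51 to 0.69 in the ARC. Among the members, Scg2 (0.39, rank 2724) and Pcsk1 (0.39, rank 2781) were closest to Vgf, and Scg3 was the farthest (−0.01, rank 9428).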

How the data were processed

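The authors deposited raw read counts for each gene, whole and not normalized, from total RNA libraries of low input. The submitters' processing notes name STAR 2.5.0a and GRCm38. The counting tool, annotation release and strand setting are not given in the sources used here. Of 53379 gene identifiers, 53274 had a symbol in GENCODE M21 (GRCm38), which also gave coordinates and exon lengths.

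Of 53 libraries, 49 were used. Replicates 5, 7 and 35 were left out for shallow depth, and replicate 32 because its label and its table name different nuclei. Replicates 39 and 40 carry 1 labelled weight, 34.3 g, so they may be 1 mouse. The labelled weights 42.9 and 43.9 g go with opposite genotypes in the PVN and the ARC.

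Models were fitted with edgeR 4.0.16 under R 4.3.3. The filter was filterByExpr with minimum count 10, scaling was by TMM, and contrasts used the quasi-likelihood test with Benjamini-Hochberg adjustment over all genes, called at an adjusted p under 0.25. Standard errors are the log2 fold change divided by the square root of F. Levels shown are CPM scaled over the 49 libraries together (24072 genes). Fold changes come from the fit of each comparison. Correlations used log2 CPM with a prior count of 2, and log2 ratios were compared with an exact permutation test. The fits were tested on simulated data.

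The members, gene lists and tests were chosen with earlier results of these data known. Named genes are the 10 members, Nnat, the markers that check the nucleus, up to 3 called genes with the smallest p per list and comparison, and the 5 genes most correlated with Vgf. Alternatives were an adjusted p under 0.05, DESeq2 1.42.0, its size factors (RLE), no filter other than a total count above 1, limma 3.58.1 (voom with quality weights), other choices of libraries, a block by labelled weight, and each replicate left out. Leaving out replicates 15 and 24 together, and leaving out replicate 15 for correlations and for genes that are no member, were added after the data were seen.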

Additional observations from a re-analysis of the deposited data

Results flagged for a closer look

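Of 70 pairs of a member and a group of 4 to 10 libraries, 3 held 1 library that stood apart by Dixon's criterion, which chance meets in about 1 of 20 groups. Chgb was 141 CPM in replicate 49 (Nnat+/+ ARC on HFD), against 307 to 359 CPM in the other libraries of the group. In the ARC of Nnat+/-p mice on HFD, Cpe was 484 CPM in replicate 50 and 551 to 559 CPM in the others. In the ARC of non-obese Nnat+/-p mice on chow, Pcsk1n was 319 CPM in replicate 43 and 455 to 481 CPM in the others.

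Replicate 35, a chow-fed Nnat+/+ ARC library with 271324 counts, was left out of the comparisons as reported and entered only the setting with all labelled libraries. In CPM without TMM scaling, 8 members were higher in it than in either of the Nnat+/+ libraries used. Vgf was 81.1 against 51.2 to 55.96 in those, Chgb 796 against 175 to 192 and Scg2 2410.4 against 438 to 497. Scg3 was 276 against 143 to 144, Scg5 162 against 82.1 to 113 and Pcsk1 155 against 30.7 to 34.4. Pcsk2 was 442 against 115 to 126, and Cpe 697 against 524 to 584.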

How the results depend on the processing

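Chga in the chow-fed male PVN changed direction without replicate 15 (with or without replicate 24), from −0.71 to 0.34 in obese and from −0.74 to 0.30 in non-obese Nnat+/-p against Nnat+/+ mice, and with each replicate left out it ran from −1.10 to 0.34 and from −1.13 to 0.30. Vgf in the ARC on HFD between genotypes, reported at −0.09, ran from −0.24 to 0.045 with each replicate left out. Other members changed direction without replicate 15 as well. Scg5 in the chow-fed male PVN was 1.19 times lower in obese and 1.14 times lower in non-obese mice than in Nnat+/+ mice. Its log2 fold changes without that library were 0.15 and 0.20. In the PVN of Nnat+/+ males on HFD against chow, Chga went from −0.59 to 0.48, and Pcsk1n from 1.28 times lower to 0.06. Some smaller fold changes and interactions did so too. With DESeq2's size factors all 21 counts were within 1.5 times the reported one. In the ARC of Nnat+/+ mice on HFD against chow, 1 member was reported. It was 0 at an adjusted p under 0.05 and without the libraries of conflicting weight, 2 with DESeq2, with the low-count filter dropped (total count above 1 only), with all labelled libraries, with replicates 39 and 40 summed and with only the 2 groups compared, and 4 with voom (Vgf, Scg2 and Pcsk1 higher, Pcsk2 lower). Between the nuclei in Nnat+/+ mice on HFD, 1 was reported, with 2 without the filter, 2 without the conflicting weights, 4 with voom, 4 without replicates 15 and 24 and 5 with the block by labelled weight. Between the nuclei in obese mice, 3 were reported, with 1 at an adjusted p under 0.05 and 5 with the weight block. Without the filter, 1 member was called in the PVN of Nnat+/+ mice on HFD against chow and 1 in the ARC on HFD between genotypes (Chga in both), where 0 were reported. The PVN call includes replicate 15, without which the log2 fold change of Chga, with the filter kept, was 0.48. Of the log2 ratios, 1 passed between nuclei in Nnat+/+ mice on HFD without replicates 15 and 24 (Scg5 over Pcsk2, adjusted p = 0.13), where 0 were reported. The cause was not tested in any of these. With each replicate left out in turn, the count ran from 0 to 2 for diet in the ARC, from 1 to 2 between nuclei in Nnat+/+ mice on HFD (2 without replicate 24), from 2 to 2 in Nnat+/-p mice on HFD, from 2 to 4 in obese and from 2 to 3 in non-obese mice, and from 0 to 0 elsewhere. Ratios that passed ran from 0 to 1 between nuclei in Nnat+/+ mice on HFD (1 without replicate 24), from 0 to 2 in the ARC on HFD between genotypes (2 without replicate 47) and from 0 to 0 otherwise. Leaving out either chow-fed Nnat+/+ ARC library leaves 1, which is then assumed to vary like the other groups. Chga and Pcsk1 in the 3 Nnat+/-p comparisons of nuclei were called at an adjusted p under 0.25 under all 11 other settings tried and with every replicate left out. Pairing by replicate number was not possible, because the numbers run through the series and none is shared between groups. The block between nuclei was therefore by labelled weight, which the labels do not say marks 1 mouse. The main fit of both nuclei had no such block and treated the libraries as independent. Each member had at least 61 counts in every library used.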

Other observations

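Replicate 32, whose label names the ARC and whose table is of the PVN, was put in no group. In CPM without TMM scaling, it held Vgf at 208, Chga at 146, Chgb at 358, Scg2 at 1119, Scg3 at 287, Scg5 at 149, Pcsk1 at 103, Pcsk2 at 208, Cpe at 619 and Pcsk1n at 356, with Nnat at 4.76. Of the other libraries left out, replicate 5 held 2302 counts and no count of any member, and replicate 7 held 812815 counts with 1 count of Vgf and 78 of Chga.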
